A study of Mus musculus with 34 samples.

Results

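DNA repair genes were followed through 10 groups of mouse cells that were either pluripotent or somatic. A gene was a member if its symbol belonged to a repair family (Rad, Xrcc, Ercc, Msh, Mlh, Pms, Brca, Fanc, Parp or the ligases Lig3 and Lig4) or was one of 14 further repair genes, such as Ung, Apex1, Atm and Blm. Each gene was read by its brightest probe set. This gave 46 member genes, with 57 probe sets, of 8251 genes measured. One further probe set, which carries several symbols with a repair gene among them, was not used because its signal cannot be given to 1 gene.

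The pluripotent groups were 2 cultured lines and 4 populations taken from embryos. Embryonic germ cells (EGC, 3 arrays) were male, derived from germ cells of E12.5 and grown in LIF and serum to passage 19. Embryonic stem cells (ESC, 2 arrays) were male, grown in LIF and serum at passages 9 to 14. Primordial germ cells (PGC) were sorted as positive for an Oct4/GFP reporter, as females at E13.5 (3 arrays), as males at E13.5 (3 arrays) and with sexes mixed at E11.5 (4 arrays). The inner cell mass (ICM, 3 arrays, mixed sex) was freed from E3.5 blastocysts by immunosurgery. The somatic groups were bone marrow haematopoietic stem/precursor cells of 8-week males, sorted as side population cells positive for Sca-1 and c-Kit and negative for CD34 and lineage markers (HSC, 2 arrays), and cells negative for the reporter from gonad and mesonephros at E11.5 (SGM, 4 arrays, mixed sex). The other somatic groups were E13.5 fibroblasts at passage 2 in serum (MEF, 6 arrays, mixed sex) and neurospheres of the 8-week sub-ventricular zone at passage 1 in EGF (NSC, 2 arrays, mixed sex). All mice were C57Bl/6 except those of ICM, which came from C57Bl/6 x C3H F1 for replicates 2 and 3 and from that cross bred further to CD1 F1 for replicate 1. Signals and differences below are log2 values, so a difference of 1 is a doubling. Arrays carry no read depth, and their number limits the precision.

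Cells repair DNA by several routes that share few parts. Base excision removes a damaged or wrong base, nucleotide excision cuts out a bulky lesion with its neighbours, and mismatch repair corrects copying errors. Double-strand breaks are either joined end to end or repaired by homologous recombination with a sister chromatid as template, and the Fanconi proteins open crosslinks between strands. Poly(ADP-ribose) polymerases mark breaks, and signalling kinases such as ATM halt the cell cycle. Recombination and mismatch repair are tied to DNA replication, base excision has been linked to the loss of modified cytosines in germ cells, and female germ cells make programmed breaks when they enter meiosis.

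Promoter sequence is given first, because many genes of replication and recombination carry E2F sites, which link transcription to the cell cycle. RefSeq promoters (GRCm38.p6) matched 39 of the 46 members. Windows of 300 bases, with 250 before the annotated start, were searched on both strands for the E2F words TTTCCCGC, TTTCGCGC, TTTGCCGC and TTTGGCGC. A word was found in 6 of 39 members (15.4%: Brca2, Fancg, Msh3, Msh5, Msh6 and Xrcc6). The share was 4.32% of the 6572 measured genes matched and 2.6% of all 27025 promoters. The letters CCAAT, searched in the same way, were in 25 of 39 members (64.1%), against 42.5% of measured genes and 41.1% of all promoters. A match is only a run of letters and shows no binding. The 250 bases before the start are shown, 5′ to 3′ on the gene's strand, for 3 members with an E2F word and for Brca1, which had the largest difference among recombination genes between pluripotent and somatic cells and holds CCAAT without an E2F word. Brca2 lies at chr5:150522371-150522620 (plus strand), Xrcc6 at chr15:82016119-82016368 (plus), Msh3 at chr13:92355004-92355253 (minus) and Brca1 at chr11:101551956-101552205 (minus). Capitals mark the words found; in Msh3, 2 E2F words on opposite strands overlap.
Brca2: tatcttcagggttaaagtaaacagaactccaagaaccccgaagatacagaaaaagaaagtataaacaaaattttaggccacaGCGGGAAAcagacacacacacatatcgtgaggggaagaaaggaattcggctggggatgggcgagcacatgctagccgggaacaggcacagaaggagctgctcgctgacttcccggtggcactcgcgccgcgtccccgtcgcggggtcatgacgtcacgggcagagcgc
Xrcc6: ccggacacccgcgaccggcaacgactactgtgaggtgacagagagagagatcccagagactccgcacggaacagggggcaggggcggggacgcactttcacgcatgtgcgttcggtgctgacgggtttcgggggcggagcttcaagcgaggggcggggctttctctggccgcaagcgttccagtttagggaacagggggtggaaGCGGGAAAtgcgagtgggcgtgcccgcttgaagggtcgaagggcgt
Msh3: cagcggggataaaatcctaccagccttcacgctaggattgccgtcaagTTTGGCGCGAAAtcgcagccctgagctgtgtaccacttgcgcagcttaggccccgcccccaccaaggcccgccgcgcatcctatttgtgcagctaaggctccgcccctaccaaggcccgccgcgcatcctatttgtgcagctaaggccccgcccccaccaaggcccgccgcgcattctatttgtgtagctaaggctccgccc
Brca1: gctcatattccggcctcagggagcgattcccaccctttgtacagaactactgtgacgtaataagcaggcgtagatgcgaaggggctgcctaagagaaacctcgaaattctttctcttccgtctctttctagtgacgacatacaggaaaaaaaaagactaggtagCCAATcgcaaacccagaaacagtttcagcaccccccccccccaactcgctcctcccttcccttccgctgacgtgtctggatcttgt

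The labelled cell types were checked with marker lists, each given as the mean log2 signal of its measured genes. The 11 pluripotent and germ cell markers averaged from 8.64 (EGC) to 9.95 (PGC E11.5) in the pluripotent groups and from 5.69 (MEF) to 6.76 (NSC) in the somatic groups. Single markers departed from this: Ddx4 was 5.30 in PGC E13.5 male and 6.26 in HSC, and Sox2 was 12.01 in NSC. Kit was highest of all groups in HSC (9.69, against 8.54 in PGC E11.5). Neural stem markers (5 of 7 measured) averaged 9.98 in NSC and at most 7.05 elsewhere. Haematopoietic markers (4 of 7) averaged 7.96 in HSC and at most 6.98 elsewhere. Gata2 (10.62 in HSC, at most 9.18 elsewhere) and Tal1 (8.77 in HSC, at most 6.44 elsewhere) set HSC apart. Meis1 (6.79 in HSC, 7.15 in SGM) did not, nor clearly did Ptprc (5.68 in HSC, 5.10 to 5.48 elsewhere). Fibroblast markers (7 of 7) averaged 12.95 in MEF, 11.42 in SGM and at most 8.60 elsewhere. Gonad and mesonephros markers (6 of 7) averaged 8.34 in SGM and at most 7.43 elsewhere. Of these, Wt1 (8.52 in SGM) and Nr2f2 (9.71 in SGM, 8.09 in MEF) set SGM apart. Gata4 (8.85 in SGM, 8.98 in EGC) did not, nor clearly did Nr5a1, Pax2 or Lhx9. Trophectoderm markers (5 of 5) ranged from 7.07 to 9.14 over the 3 ICM arrays, against 6.45 to 6.82 in PGC E11.5, and their part in ICM results was not tested. Actin probe sets near the 3′ end read higher than those near the 5′ end by 0.39 to 1.86 in pluripotent group means, and by 0.24 to 0.70 in somatic ones. For Gapdh this gap was 2.65 to 4.00 in pluripotent groups, 1.00 in HSC, 3.08 in SGM, 2.66 in MEF and 0.90 in NSC. The part of these RNA quality measures in the results was not tested. PGC E11.5 replicate 4 stood apart: over all genes its difference from the other 3 had an SD of 0.34 to 0.43, against 0.18 to 0.22 among those, and its proliferation mean was 10.06, against 10.33 to 10.47.

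Over the 10 group means, the repair genes ranged from nearly flat to among the most variable genes. The difference between a gene's highest and lowest group mean had a median of 1.54 over the members and 1.30 over all genes. It exceeded 1 in 31 of 46 members (67.4%) and in 60.7% of all genes. Ung, the glycosylase that removes uracil from DNA, had the widest range: 12.43 in PGC E11.5 and 8.08 in MEF. Brca1 (10.96 in PGC E11.5, 7.19 in MEF) and Parp1 (10.08 in PGC E11.5, 6.36 in MEF) followed. Lig3, which seals nicks, Mgmt, which reverses alkylated guanine, and Msh6, a mismatch sensor, ranged by less than 0.5, and Msh6 was called in none of the 11 comparisons. MEF held the lowest group mean in 21 of 46 members (45.7%), against 19.8% of all genes. At the bright end MEF also differed, with 13 of all probe sets above 16, where no other group had any, and whether its scale matches that of the others was not tested. PGC E11.5 held the highest in 10 members (21.7%, against 4.85% of all genes) and HSC in 10 (21.7%, against 23.5%).

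**Figure D1:**
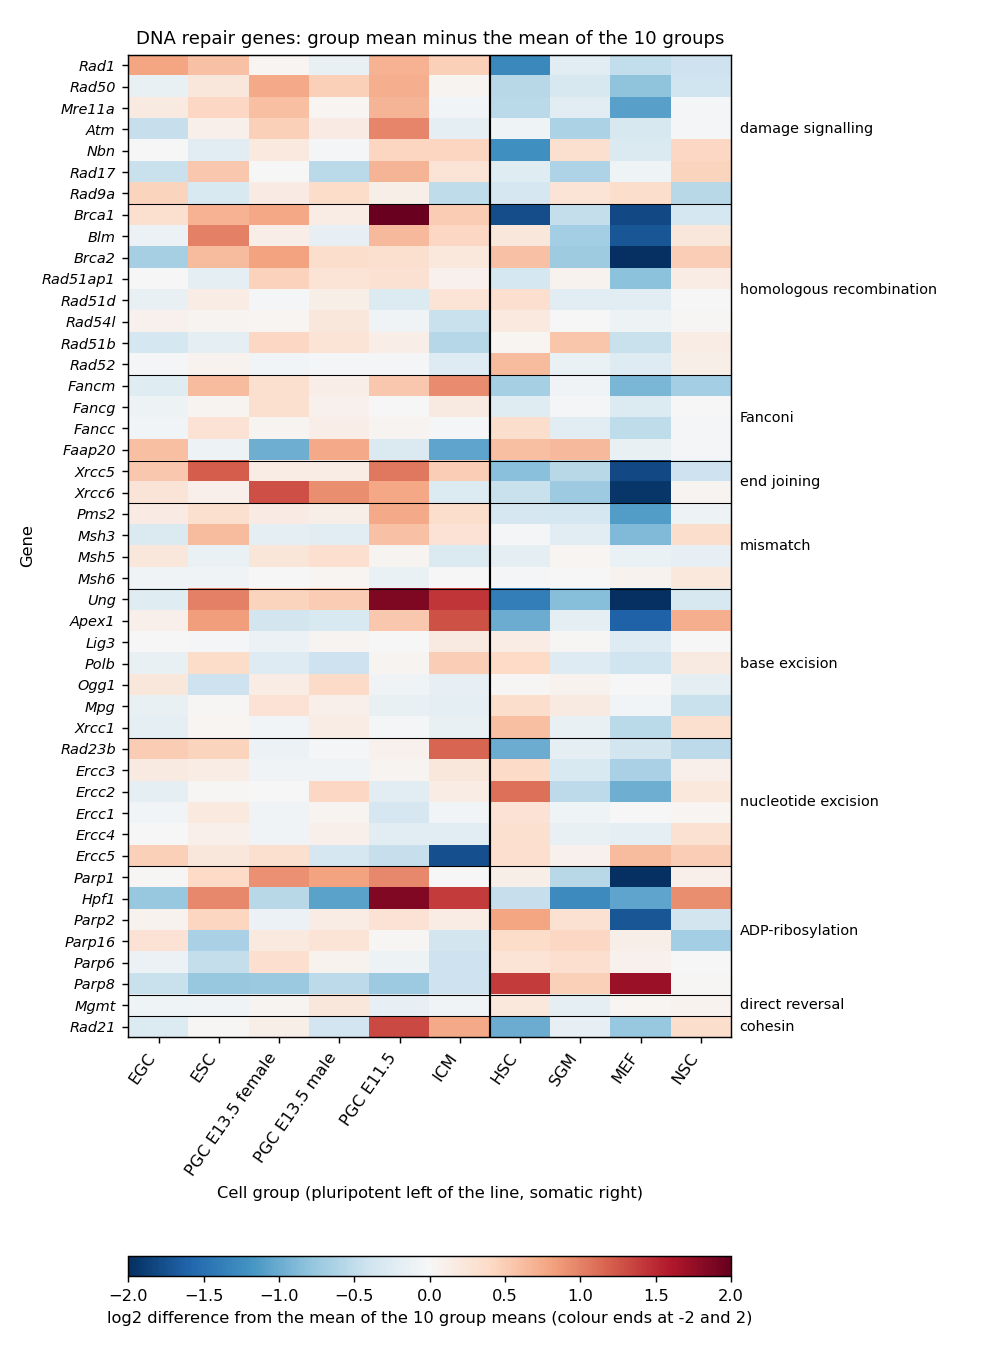
Heat map of the 46 DNA repair genes (rows, grouped by role) in the 10 cell groups (columns, pluripotent left of the line). Colour is the group mean minus the mean of the 10 group means on the log2 scale, and ends at -2 and 2. The MEF column holds the lowest mean in 21 of the 46 rows, and Brca1, Ung and Hpf1 are deepest red in PGC E11.5.

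The first comparison asks which repair genes set pluripotent cells apart from somatic cells on average. Brca1, Ung and both Ku subunits were higher in pluripotent cells, and the mono-ADP-ribosyltransferase gene Parp8 was lower. Of the 46 members, 26 rose and 7 fell at an adjusted p under 0.05, the threshold used for all calls (limma, over 8251 genes). Among all genes 63.9% were called, 29.1% higher and 34.9% lower, so the members' calls leaned to the higher side (56.5% and 15.2%). The median difference was 0.20 over the members and -0.01 over all genes. The contrast takes the mean of 6 group means minus the mean of 4.

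Among damage signalling genes 6 of 7 rose and none fell. Rad1, part of the checkpoint clamp, was 2.02-fold higher (1.02 ± 0.09 SE). Rad50 (0.87) and Mre11a (0.77), which hold and trim broken ends, rose with their partner Nbn (0.33), and the kinase gene Atm rose by 0.45. Only HSC (5.95) and MEF (6.89) had Nbn means below those of the pluripotent groups (6.96 to 7.62). The Nbn means of SGM (7.49) and NSC lay within that range. Rad17, the loader of the clamp, was not called (0.21, adjusted p = 0.0729).

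Homologous recombination genes rose in 4 of 8 and fell in 2. Brca1, which promotes end resection, had signals of 9.05 to 11.31 in the 18 pluripotent arrays (median 9.63) and 7.08 to 8.93 in the 14 somatic arrays (median 7.35). No pluripotent array overlapped a somatic one, which held for 0.861% of all genes on the higher side. Brca1 was 3.56-fold higher (1.83 ± 0.10, adjusted p = 4.02e-15). Blm, a helicase that takes apart recombination intermediates, rose by 0.81, and Brca2, which loads the strand exchange protein, by 0.70. Brca2 was lowest in MEF (6.01), with 7.34 in SGM. Its means in NSC (8.53) and HSC (8.64) lay within those of the pluripotent groups (7.38 to 8.86). Rad51ap1 rose by 0.40. Rad51b (-0.13) and Rad52 (-0.15) were lower. Rad52 stood at 5.94 to 6.40 in pluripotent arrays and 5.90 to 7.08 in somatic arrays. The somatic values were spread wider on both sides, and the 2 HSC arrays were highest, at 7.08 and 6.78. Without HSC the Rad52 difference was 0.035 and not called (adjusted p = 0.49).

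Both end-joining genes rose. Xrcc5 and Xrcc6 encode the larger and the smaller subunit of Ku, the ring that binds broken ends. Xrcc5 ran from 8.28 to 9.88 in pluripotent arrays (median 8.92) and from 6.40 to 8.16 in somatic arrays (median 7.64), with no overlap. It was 2.82-fold higher (1.497 ± 0.10, adjusted p = 3.59e-13). Xrcc6 ran from 7.55 to 9.51 in pluripotent arrays (median 8.86) and from 6.03 to 8.39 in somatic arrays (median 7.36). Only 12 of the 18 pluripotent arrays lay above all somatic arrays, and the difference was 1.27 ± 0.08 (adjusted p = 2.28e-13). For Xrcc5 the mean of its probe sets gave 0.69, since its other probe set is dim (3.01) and differed by -0.11.

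Base excision genes split by gene. Ung ran from 10.25 to 12.69 in pluripotent arrays (median 11.40) and from 7.85 to 10.30 in somatic arrays (median 9.03). Of the 18 pluripotent arrays 17 exceeded every somatic array, and Ung was 4.26-fold higher (2.09 ± 0.09, adjusted p = 5.43e-17). A dimmer Ung probe set differed by -0.01 (adjusted p = 0.817 over all probe sets), and the mean of both gave 1.04. Apex1, which cuts at sites that have lost a base, rose by 0.86. The other 5 (Lig3, Polb, Ogg1, Mpg and Xrcc1) were not called, with differences between -0.10 and 0.04, though a dimmer Lig3 probe set was called higher (0.62).

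Mismatch repair genes rose in 3 of 4: Pms2 by 0.79, Msh3 by 0.33 and Msh5, which acts in meiotic crossing over, by 0.19. Fanconi genes rose in 3 of 4: Fancm, which moves along DNA at stalled forks, by 0.97, Fancg by 0.22 and Fancc by 0.18. The lowest and highest Fancc group means were both somatic (9.10 in MEF, 9.96 in HSC). Faap20, the core complex member that reads ubiquitin, fell by 0.45, with 9.06 to 11.37 in pluripotent arrays and 9.80 to 11.21 in somatic arrays. These ranges overlap almost wholly, and the difference was -0.27 without ICM and -0.29 without PGC E13.5 female. A dimmer Faap20 probe set differed by 0.03 (adjusted p = 0.669 over all probe sets), and the mean of both gave -0.21. Rad21, a subunit of cohesin, rose by 0.65.

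Nucleotide excision genes rose in 2 of 6 and fell in 2. Rad23b, which stabilises the lesion sensor, rose by 0.86, and the helicase gene Ercc3 by 0.19. The lowest and highest Ercc3 group means were both somatic (6.24 in MEF, 7.28 in HSC). Ercc5, the nuclease that cuts on the 3′ side of a lesion, had 6.83 to 9.58 in pluripotent arrays (median 8.62) and 8.86 to 9.71 in somatic arrays (median 9.35). It fell by 0.64 (adjusted p = 1.05e-08), but by 0.34 without ICM, its lowest group. A dimmer Ercc5 probe set differed by -0.09 (adjusted p = 0.241 over all probe sets), and the mean of both gave -0.37. Ercc4 fell by 0.12.

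ADP-ribosylation genes rose in 3 of 6 and fell in 2. Parp1, the main sensor of strand breaks, ran from 8.93 to 10.19 in pluripotent arrays (median 9.83) and from 6.10 to 9.44 in somatic arrays (median 8.52). The lowest somatic values were those of MEF, whose 6 arrays ended at 6.65. Parp1 was 2.45-fold higher (1.29 ± 0.06, adjusted p = 4.8e-16), by 0.63 without MEF and 2.17 without NSC and HSC. Hpf1, the cofactor that directs Parp1 and Parp2 to serine, rose by 0.77, and Parp2 by 0.41. Parp2 was lowest in MEF (7.52), with 8.86 in NSC and 9.53 in SGM. In HSC it was 10.01, above every pluripotent group mean (9.10 to 9.65). Parp8 ran from 4.62 to 5.30 in pluripotent arrays (median 4.88) and from 5.44 to 7.46 in somatic arrays (median 6.69). The groups did not overlap, as for 0.873% of all genes on the lower side, and Parp8 was 2.85-fold lower (-1.51 ± 0.07, adjusted p = 5.58e-17). Parp6, a relative of Parp8, fell by 0.29, with 5.78 to 6.84 in pluripotent and 6.21 to 7.07 in somatic arrays. It fell by 0.19 without HSC replicate 1.

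**Figure D2:**
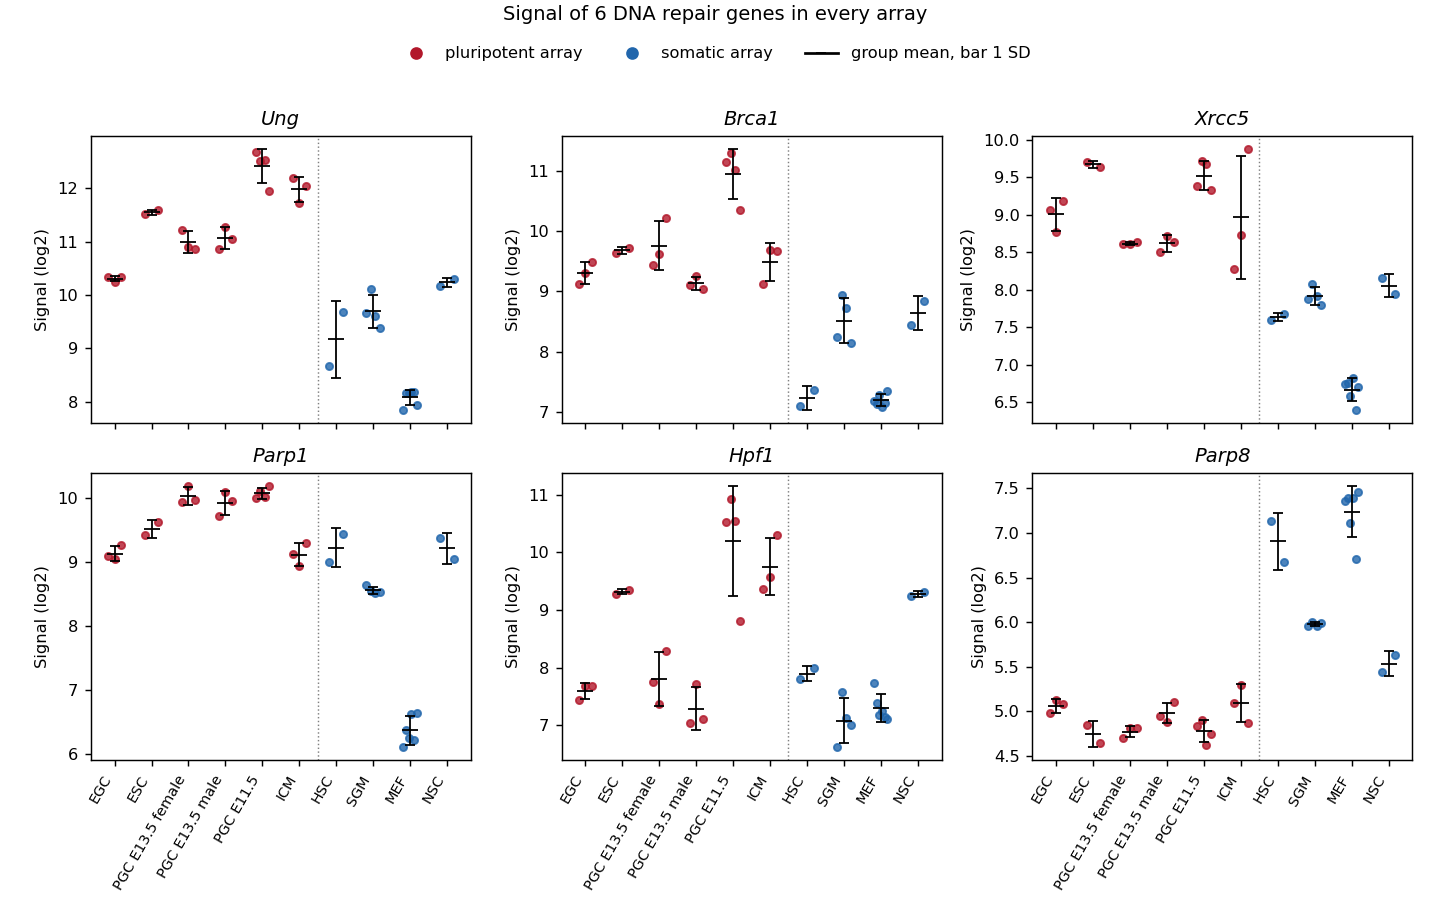
Log2 signal of 6 DNA repair genes in each of the 32 arrays (points), by cell group, with the group mean and 1 SD (bars). Vertical axes differ between panels and do not start at 0. Brca1 and Xrcc5 separate all pluripotent arrays (red) from all somatic arrays (blue), Parp8 does so in the opposite direction, and Parp1 is lowest in MEF.

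For PGC E11.5 the somatic neighbours, SGM, served as the comparison, taken at the same age. Hpf1, Ung and Brca1 led 23 rises, and Parp8 led 8 falls. Among all genes 50.2% were called, 23.2% higher and 26.9% lower. Median differences were 0.25 over the members and -0.04 over all genes. The arrays of the groups did not overlap in 22 of 46 members on the higher and 7 on the lower side, against 21.4% and 26.5% of all genes. In bulk samples, fewer cells of a type and less RNA per cell cannot be told apart. Erythroid markers (5 of 6 measured) averaged 7.39 in PGC E11.5 (6.80 to 8.19 over its arrays) and 11.02 in SGM (10.76 to 11.29). Fibroblast markers averaged 8.08 in PGC E11.5 and 11.42 in SGM. The part of these cells in the differences was not tested.

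Hpf1 had signals of 10.53, 10.92, 10.55 and 8.80 in PGC E11.5, against 6.62, 7.58, 7.12 and 7.002 in SGM. The fourth germ cell array lay well below the others, yet above every SGM array. Hpf1 was 8.71-fold higher (3.12 ± 0.30 SE, adjusted p = 9.69e-10). Without PGC E11.5 replicate 4 the Hpf1 difference was 3.59, and 31 members were again called, with 50.7% of all genes called.

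Ung had 12.69, 12.52, 12.53 and 11.96 in PGC E11.5, against 9.66, 10.11, 9.62 and 9.39 in SGM. The groups were far apart, and Ung was 6.64-fold higher (2.73 ± 0.17, adjusted p = 2.37e-13). Its dimmer probe set was called the other way (-0.32). Brca1 had 11.15, 11.31, 11.03 and 10.36 in PGC E11.5, against 8.25, 8.93, 8.72 and 8.15 in SGM. It was 5.46-fold higher with no overlap (2.45 ± 0.19, adjusted p = 8.78e-12).

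Atm had 7.47, 7.78, 7.49 and 7.38 in PGC E11.5, against 5.98, 5.77, 5.96 and 5.99 in SGM. The 4 germ cell arrays were closely grouped above the 4 somatic ones, and Atm was 3.05-fold higher (1.61 ± 0.11, adjusted p = 4.11e-13). Xrcc5 had 9.39, 9.72, 9.67 and 9.33 in PGC E11.5, against 7.88, 8.08, 7.92 and 7.79 in SGM. It was 3.04-fold higher (1.61 ± 0.19, adjusted p = 3.55e-08), and its partner Xrcc6 2.82-fold. As means over probe sets, Xrcc5 differed by 0.87 and Ung by 1.204.

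By role, damage signalling rose in 5 of 7, with Rad17 at 1.30 and Rad50 at 1.05. Homologous recombination rose in 3 of 8 (Brca1, Blm by 1.34 and Brca2 by 1.03), and Rad51b fell. Both mismatch genes that rose, Pms2 (1.11) and Msh3 (0.81), did so without overlap. Rad21 was 2.79-fold and Parp1 2.87-fold higher.

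Parp8 had 4.84, 4.91, 4.62 and 4.75 in PGC E11.5, against 5.96, 6.01, 5.95 and 5.99 in SGM. It was lower in every germ cell array, 2.30-fold on average (-1.200 ± 0.13, adjusted p = 4.99e-09). Faap20 had 10.08, 9.78, 9.60 and 10.47 in PGC E11.5, against 11.21, 10.68, 10.80 and 10.99 in SGM. It was 1.92-fold lower (-0.94 ± 0.17, adjusted p = 2.33e-05), or -0.46 as a mean of its probe sets. Ercc5 (-0.55), Parp6 (-0.44), Rad51b (-0.43) and Parp16 (-0.39) also fell without overlap of arrays.

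The E13.5 germ cells were compared between the sexes, around the time of meiotic entry in females. Few repair genes were called: 2 of 46 were higher and 1 was lower in females, where 8.62% of all genes were called (6.29% higher, 2.33% lower). The 3 calls became 6 without female replicate 1, where 6.53% of all genes were called. With only plain _at probe sets 1 call was left, but Faap20 and Mre11a have no such probe set and were not tested there. Faap20 had 9.30, 9.53 and 9.06 in PGC E13.5 female, against 10.98, 11.37 and 10.74 in PGC E13.5 male. The sexes lay far apart, and Faap20 was 3.32-fold lower in females (-1.73 ± 0.19 SE, adjusted p = 5.06e-07). Its brightest probe set ends in _f_at and may match related sequences, while the dimmer one differed by -0.09 (adjusted p = 0.678 over all probe sets).

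Ercc5 had 9.25, 9.19 and 9.16 in PGC E13.5 female, against 8.47, 8.76 and 8.38 in PGC E13.5 male. All female arrays were above all male ones (0.66 ± 0.16, adjusted p = 0.00625). A dimmer probe set differed by -0.04, and the mean of both lost the call (0.31, adjusted p = 0.0892). Mre11a had 7.57, 7.82 and 8.03 in PGC E13.5 female, against 7.24, 7.21 and 7.27 in PGC E13.5 male. It was 1.48-fold higher in females (0.57 ± 0.15, adjusted p = 0.0123), a call lost without female replicate 3 (0.45, adjusted p = 0.111).

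Brca2 (0.46 ± 0.15, adjusted p = 0.0548) and Brca1 (0.62 ± 0.21, adjusted p = 0.0714) missed the threshold, though no female array overlapped a male one. Such separation without regard to the test was seen in 9 members on the higher and 7 on the lower side, and in 13.9% and 20.9% of all genes. Erythroid markers averaged 7.85 in females and 8.07 in males, and fibroblast markers 8.34 in females and 8.60 in males.

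Each E13.5 group was also set against PGC E11.5, and the 2 comparisons share those 4 arrays. In females 6 members rose and 15 fell, against 31.5% of all genes called (16.3% higher, 15.2% lower). In males 11 rose and 16 fell, against 52.4% of all genes called (31.7% higher, 20.7% lower). The median difference was -0.02 over the members and 0.09 over all genes in females, and 0.01 and 0.15 in males. Proliferation genes (14 of 15 measured) averaged 9.65 in female and 9.42 in male E13.5 cells and 10.32 in PGC E11.5. Arrays did not overlap in 11 members on the higher and 12 on the lower side in females (23.9% and 13.9% of all genes), and in 13 and 17 in males (36.7% and 20.4%). Of the proliferation genes, 8 fell in females and 10 in males, and their part in the repair differences was not tested.

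Hpf1 had 7.75, 7.37 and 8.29 in PGC E13.5 female and 7.03, 7.72 and 7.11 in PGC E13.5 male, against 8.80 to 10.92 in PGC E11.5. It was lower in every E13.5 array, by 2.40 ± 0.32 in females (adjusted p = 3.28e-06) and by 2.91 ± 0.32 in males (adjusted p = 1.88e-07). Brca1 had 9.44, 9.62 and 10.22 in females and 9.11, 9.26 and 9.05 in males, against 10.36 to 11.31 in PGC E11.5. The third female array came close to the lowest E11.5 array, and Brca1 was 2.30-fold lower in females (adjusted p = 4.72e-05) and 3.54-fold lower in males (-1.82 ± 0.20, adjusted p = 1.62e-07).

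Ung had 11.23, 10.90 and 10.86 in females and 10.87, 11.28 and 11.05 in males, against 11.96 to 12.69 in PGC E11.5. It fell in both, by 1.43 ± 0.19 in females (adjusted p = 2.16e-06) and by 1.36 ± 0.19 in males (adjusted p = 3.37e-06). A dimmer Ung probe set was called higher in males (0.20, adjusted p = 0.048 over all probe sets) and differed by 0.11 in females (adjusted p = 0.351). Rad21 had 10.39, 10.45 and 10.92 in females and 10.06, 10.46 and 9.72 in males, against 11.28 to 12.16 in PGC E11.5. It fell by 1.19 in females and by 1.70 ± 0.27 in males (adjusted p = 1.75e-05).

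Falls in damage signalling were called for Rad17 (-0.67), Rad1 (-0.65) and Atm (-0.50) in females. In males they were called for Rad17 (-1.21), Rad1 (-0.85), Atm (-0.81), Mre11a (-0.64) and Nbn (-0.48), while Rad9a rose by 0.24. Mismatch genes Msh3 (-0.78 in females, -0.81 in males) and Pms2 (-0.61 in females, -0.64 in males) fell. The dimmer Msh3 probe set was not called (0.09 in females with adjusted p = 0.566, 0.15 in males with adjusted p = 0.25). Over the group means, the Msh3 probe sets correlated at -0.366. Xrcc5 (-0.91 in each sex) and Apex1 (-0.90 in females, -0.84 in males) also fell from PGC E11.5.

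Among the genes that rose, in females Ercc5 was 9.25, 9.19 and 9.16, against 8.39, 8.44, 8.32 and 8.49 in PGC E11.5, with no overlap (0.79 ± 0.15, adjusted p = 0.000148). Brca2 was 8.94, 8.80 and 8.83 in females, against 8.49, 8.29, 8.31 and 8.39 in PGC E11.5 (0.49 ± 0.14, adjusted p = 0.00861). Xrcc6 was 9.51, 9.49 and 9.48 in females, against 8.94, 9.18, 8.94 and 8.86 in PGC E11.5 (0.51 ± 0.17, adjusted p = 0.0216). Every female array exceeded every E11.5 array for these 3 genes. The Xrcc6 call was lost without female replicate 1 (0.50, adjusted p = 0.0649) or 2 (0.52, adjusted p = 0.0594).

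In males Faap20 was 10.98, 11.37 and 10.74, against 10.08, 9.78, 9.60 and 10.47 in PGC E11.5 (1.05 ± 0.18, adjusted p = 4.36e-05). In females Faap20 fell by 0.68, against the same arrays. Its dimmer probe set differed by 0.27 in males (adjusted p = 0.0413 over all probe sets) and 0.18 in females (adjusted p = 0.232), so the opposite directions rest on 1 probe set. Ercc2, a helicase of the repair and transcription factor TFIIH, was 8.38, 8.20 and 8.39 in males, against 7.71, 7.51, 7.58 and 8.03 in PGC E11.5 (0.61 ± 0.14, adjusted p = 0.000813). Ogg1, which removes oxidised guanine, was 8.38, 8.20 and 8.35 in males, against 7.81, 7.83, 7.70 and 8.06 in PGC E11.5 (0.45 ± 0.09, adjusted p = 0.000221). The male arrays lay above all E11.5 arrays for each of them. As means over probe sets, the female differences were 0.52 for Ercc5 and -0.66 for Ung, and the male difference of Faap20 was 0.66. Without PGC E11.5 replicate 4, 23 members were called in females (36.1% of all genes) and 27 in males (54.6%).

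**Figure D3:**
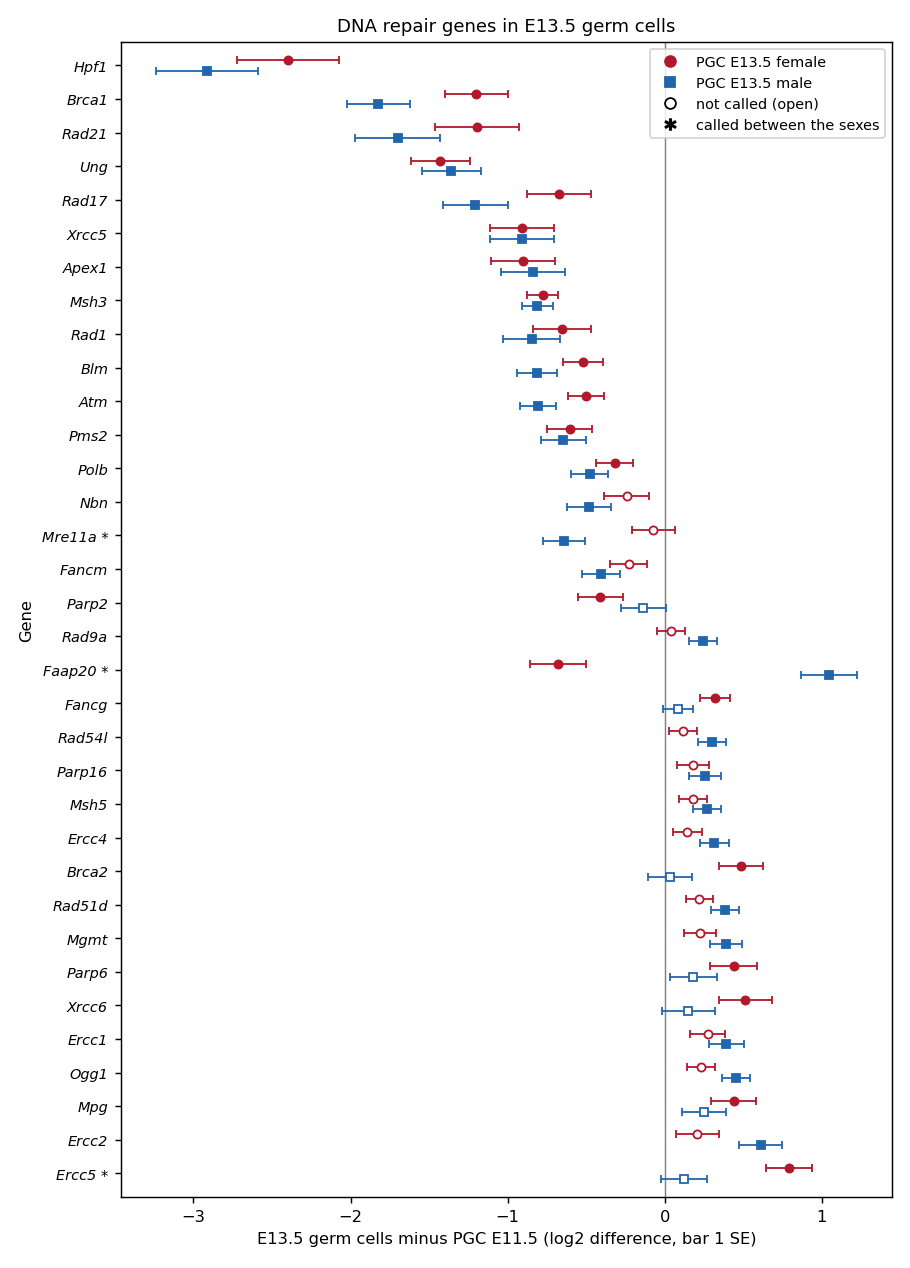
Log2 difference of E13.5 germ cells from PGC E11.5 (horizontal axis, bar 1 SE) for the members called in at least 1 of the germ cell comparisons. Circles are females, squares males, open symbols were not called, and an asterisk marks a call between the sexes; both series share the 4 PGC E11.5 arrays. Hpf1 is lowest in both (-2.40 in females, -2.91 in males), and Faap20 lies on opposite sides of 0.

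PGC E11.5 were next compared with ICM. Only ICM did not come from C57Bl/6 mice, so strain and cell type cannot be told apart here. Here 17 members rose and 7 fell, against 41.8% of all genes called (23% higher, 18.7% lower), and the median difference was 0.23 over the members and 0.04 over all genes. Brca1 had 10.36 to 11.31 in PGC E11.5, against 9.13, 9.68 and 9.67 in ICM, and was 2.76-fold higher (1.47 ± 0.20 SE, adjusted p = 1.24e-06). Ercc5 had 8.39, 8.44, 8.32 and 8.49 in PGC E11.5, against 7.46, 7.05 and 6.83 in ICM (1.30 ± 0.15, adjusted p = 4.69e-08). Atm had 7.38 to 7.78 in PGC E11.5, against 6.31, 6.41 and 6.40 in ICM (1.16 ± 0.11, adjusted p = 4.43e-09). No germ cell array overlapped ICM for these genes. Damage signalling rose in 4 of 7 and none fell, and both Ku genes rose (Xrcc6 by 1.04, Xrcc5 by 0.56).

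Falls in germ cells were led by Rad23b, with 10.66, 10.52, 10.67 and 10.47 in PGC E11.5, against 11.46, 11.65 and 11.89 in ICM (-1.09 ± 0.10, adjusted p = 8.37e-10). Apex1 had 11.04, 10.88, 11.04 and 10.63 in PGC E11.5, against 11.60, 11.19 and 12.13 in ICM. The groups did not overlap (-0.75 ± 0.20, adjusted p = 0.00423), but the call was lost without ICM replicate 3 (-0.50, adjusted p = 0.0635). Rad51d, a paralogue of the strand exchange protein, had 6.49, 6.30, 6.52 and 6.62 in PGC E11.5, against 7.12, 6.99 and 6.98 in ICM (-0.55 ± 0.09, adjusted p = 1.2e-05). Arrays did not overlap in 14 of 46 members on the higher and 5 on the lower side, against 20.6% and 16.1% of all genes. The mean over probe sets of Ercc5 differed by 0.70. Without PGC E11.5 replicate 4, 30 members and 40.1% of all genes were called. Trophectoderm markers averaged 6.56 in PGC E11.5 and 8.41 in ICM, and primitive endoderm markers (4 of 4) 7.77 in PGC E11.5 and 8.90 in ICM.

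Embryonic stem cells were set against ICM, the cells from which such lines are derived. Strain and cell type cannot be told apart in this comparison either. With 2 ESC arrays, arrays did not overlap in 18 of 46 members on the higher and 11 on the lower side, against 26.9% and 19.9% of all genes. Of the 46 members, 12 members rose and 2 fell, against 27.8% of all genes called (15.3% higher, 12.6% lower). Medians were 0.17 over the members and 0.04 over all genes. Ercc5 had 9.00 and 9.20 in ESC, against 7.46, 7.05 and 6.83 in ICM, and was 3.96-fold higher (1.99 ± 0.17 SE, adjusted p = 1.52e-09). Faap20 had 10.06 and 10.28 in ESC, against 9.32, 9.18 and 9.12 in ICM (0.96 ± 0.21, adjusted p = 0.00129). Xrcc5 had 9.71 and 9.64 in ESC, against 8.28, 8.73 and 9.88 in ICM. One ICM array thus exceeded both ESC arrays (0.71 ± 0.24, adjusted p = 0.0301), and the call was lost without ESC replicate 1 (adjusted p = 0.149) or 2 (0.105) or ICM replicate 1 (a difference of 0.37, adjusted p = 0.21) or 2 (0.108). A fit of ESC and ICM alone also lost it (adjusted p = 0.337) as did centred arrays (adjusted p = 0.0516), and without ICM replicate 3 the difference was 1.17. As means over probe sets, Ercc5 differed by 1.09 and Faap20 by 0.49.

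Rad23b fell, with 10.85 and 11.03 in ESC, against 11.46, 11.65 and 11.89 in ICM (-0.73 ± 0.12, adjusted p = 3.32e-05). Nbn had 6.68 and 7.23 in ESC, against 7.57, 7.63 and 7.63 in ICM (-0.66 ± 0.17, adjusted p = 0.00477). The ESC arrays differed widely from one another, and the Nbn call was lost without ESC replicate 1 (-0.38, adjusted p = 0.207) or in a fit of ESC and ICM alone (adjusted p = 0.0727). That fit called 3 members and 9.4% of all genes, and array weights called 8 members and 20.8% of all genes. After median centring of the arrays the split was 5 higher and 4 lower, with 27.5% of all genes called. Without ESC replicate 1 or 2 only 5 members were called (16.5% or 17.9% of all genes), or 9 without ICM replicate 2 (24%). Trophectoderm markers averaged 6.76 in ESC and 8.41 in ICM, and primitive endoderm markers 7.64 in ESC and 8.90 in ICM.

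The 2 cultured lines were compared in the same medium. In EGC 5 members rose and 15 fell relative to ESC, against 39.4% of all genes called (20.8% higher, 18.6% lower), with a median difference of -0.17 over the members and 0.04 over all genes. Hpf1 had 7.43, 7.67 and 7.69 in EGC, against 9.29 and 9.35 in ESC, and was 3.30-fold lower (-1.72 ± 0.39 SE, adjusted p = 0.000913). Brca2 had 7.29, 7.29 and 7.56 in EGC, against 8.65 and 8.73 in ESC, and was 2.48-fold lower (-1.31 ± 0.17, adjusted p = 8.33e-07). Ung had 10.34, 10.25 and 10.33 in EGC, against 11.52 and 11.59 in ESC (-1.25 ± 0.22, adjusted p = 8.8e-05). The lines did not overlap in any of these, nor in 8 members on the higher and 22 on the lower side in all, against 35.3% and 30.8% of all genes.

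Blm (-1.13), Rad17 (-0.99), Msh3 (-0.93) and Fancm (-0.87) were lower as well, but the dimmer Msh3 probe set was called the other way (1.16, adjusted p = 7.76e-08 over all probe sets). Parp16, an ADP-ribosyltransferase of the endoplasmic reticulum, had 8.61, 8.43 and 8.33 in EGC, against 7.55 and 7.51 in ESC (0.93 ± 0.12, adjusted p = 1.22e-06). Rad9a, a part of the checkpoint clamp, had 7.26, 7.32 and 7.26 in EGC, against 6.57 and 6.51 in ESC (0.74 ± 0.11, adjusted p = 4.06e-06). Faap20 had 10.87, 10.67 and 11.07 in EGC, against 10.06 and 10.28 in ESC (0.70 ± 0.21, adjusted p = 0.0111), a call lost without ESC replicate 1 (0.59, adjusted p = 0.108). Without either ESC array 13 members were called, with 28.8% of all genes called without replicate 1 and 26% without replicate 2. Proliferation genes averaged 9.75 in EGC and 10.24 in ESC. As means over probe sets, Ung differed by -0.60 and Faap20 by 0.44. The labels do not say how many lines or clones each type comprised, so a difference of a line and of its type cannot be told apart.

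EGC were also set against male germ cells of E13.5, a stage close to that of their origin. In EGC 3 members rose and 12 fell, against 30.7% of all genes called (14.8% higher, 15.9% lower). The median difference was -0.10 over the members and -0.08 over all genes. Brca2 had 7.29, 7.29 and 7.56 in EGC, against 8.20, 8.58 and 8.43 in PGC E13.5 male (-1.02 ± 0.15 SE, adjusted p = 5.23e-06). Parp1 had 9.09, 9.04 and 9.26 in EGC, against 9.72, 10.09 and 9.95 in PGC E13.5 male (-0.79 ± 0.14, adjusted p = 6e-05). Ung had 10.34, 10.25 and 10.33 in EGC, against 10.87, 11.28 and 11.05 in PGC E13.5 male (-0.76 ± 0.20, adjusted p = 0.00468). No EGC array reached the male germ cells in these genes.

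Rad1 had 8.50, 8.43 and 8.57 in EGC, against 7.53, 7.45 and 7.70 in PGC E13.5 male (0.94 ± 0.19, adjusted p = 0.000462). Ercc5 had 9.10, 9.35 and 9.58 in EGC, against 8.47, 8.76 and 8.38 in PGC E13.5 male (0.81 ± 0.16, adjusted p = 0.000195). Rad23b had 10.93, 11.07 and 10.999 in EGC, against 10.61, 10.49 and 10.33 in PGC E13.5 male (0.52 ± 0.10, adjusted p = 0.000306). These 3 were the members that rose, each without overlap. Arrays did not overlap in 5 of 46 members on the higher and 16 on the lower side, against 20.8% and 30.3% of all genes. As means over probe sets, Ercc5 differed by 0.32, Ung by -0.40 and Rad23b by 0.79.

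The cultured pluripotent lines were set against MEF, which are also grown in serum. Of the 46 members, 32 rose and 5 fell, against 65.6% of all genes called (35.7% higher, 29.8% lower). Median differences were 0.49 over the members and 0.05 over all genes. Parp1 had 9.09, 9.04 and 9.26 in EGC and 9.42 and 9.62 in ESC, against 6.10 to 6.65 in the 6 MEF arrays (median 6.31). It was 7.79-fold higher (2.96 ± 0.10 SE, adjusted p = 1.11e-19). Ung had 10.25 to 11.59 in the 5 EGC and ESC arrays, against 7.85 to 8.19 in MEF (median 8.16), and was 7.20-fold higher (2.85 ± 0.15, adjusted p = 1.15e-15). Xrcc5 had 8.77 to 9.71 in EGC and ESC, against 6.40 to 6.82 in MEF (median 6.72), and was 6.37-fold higher (2.67 ± 0.16, adjusted p = 2.66e-14). The lines and MEF were far apart in all 3. Arrays did not overlap in 22 members on the higher side and 1 on the lower, against 22.1% and 20.4% of all genes. As means over probe sets, Ung differed by 1.47 and Xrcc5 by 1.44.

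Homologous recombination genes rose in 7 of 8, with Brca1 (2.30), Blm (2.15) and Brca2 (2.02) each over 4-fold. All 4 Fanconi genes and both Ku genes rose, as did 5 of 7 base excision genes, with Apex1 at 2.08. Parp8 had 4.64 to 5.13 in EGC and ESC, against 6.71 to 7.46 in MEF (median 7.38), and was 5.06-fold lower (-2.34 ± 0.11, adjusted p = 6.58e-17). Parp6 (5.89 to 6.51 in the lines, 6.29 to 6.65 in MEF; -0.38 ± 0.12, adjusted p = 0.00684) and Parp16 (7.51 to 8.61 in the lines, 8.14 to 8.54 in MEF; -0.30 ± 0.08, adjusted p = 0.00215) fell with overlap. Proliferation genes averaged 9.75 in EGC and 10.24 in ESC, against 7.28 in MEF, with 13 of 14 higher in the lines. Their part in the repair differences was not tested.

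Haematopoietic stem cells were set against the mean of the other somatic groups. In HSC 22 members rose and 7 fell, against 64.4% of all genes called (36.8% higher, 27.6% lower). Medians were 0.21 over the members and 0.08 over all genes. With each array centred on its median, which moved the median of all genes by -0.107, the split was 15 higher and 11 lower. Of all genes 62.5% were called in that run. Ercc2 had 8.91 and 9.14 in HSC, against 6.81 to 8.28 in the 12 other arrays (median 7.14), and was 2.91-fold higher (1.54 ± 0.14 SE, adjusted p = 1.88e-10). A dimmer Ercc2 probe set was also higher, by 0.53 (adjusted p = 0.000121 over all probe sets). Parp2, a second sensor of breaks, had 10.23 and 9.79 in HSC, against 7.25 to 9.66 elsewhere (median 8.27; 1.38 ± 0.15, adjusted p = 4.02e-09). Brca2 had 8.46 and 8.81 in HSC, against 5.60 to 8.57 elsewhere (median 6.78; 1.34 ± 0.14, adjusted p = 4.08e-09). Only for Brca2 did an HSC array fall within the others' range.

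Nbn had 5.90 and 5.99 in HSC, against 6.76 to 7.76 elsewhere (median 7.20), and was 2.60-fold lower (-1.38 ± 0.14, adjusted p = 3.32e-09). Rad1 had 6.22 and 6.61 in HSC, against 6.89 to 7.78 elsewhere (median 7.29; -0.91 ± 0.18, adjusted p = 0.000104). Both were below every other somatic array. Arrays did not overlap in 8 of 46 members on the higher and 3 on the lower side, against 21% and 13.1% of all genes. Brca1 had 7.09 and 7.36 in HSC, against 7.08 to 8.93 elsewhere (median 7.75; -0.89 ± 0.20, adjusted p = 0.000432), and so overlapped MEF. Damage signalling thus fell in 3 of 7 and rose in none, while homologous recombination rose in 5 of 8 (Rad52 by 0.73) and nucleotide excision in 4 of 6. Proliferation genes averaged 8.29 in HSC, 9.23 in SGM, 7.28 in MEF and 9.98 in NSC. Macrophage markers (4 of 4) averaged 7.55 in HSC and at most 6.77 elsewhere. Lyz2 differed most (9.15 in HSC, 6.77 in MEF), and Cd68 was 7.55 in HSC and 7.63 in MEF. Csf1r (7.05 in HSC, 6.90 in SGM) and Adgre1 (6.44 in HSC, 6.17 in SGM) differed little. The part of these markers was not tested.

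**Figure D4:**
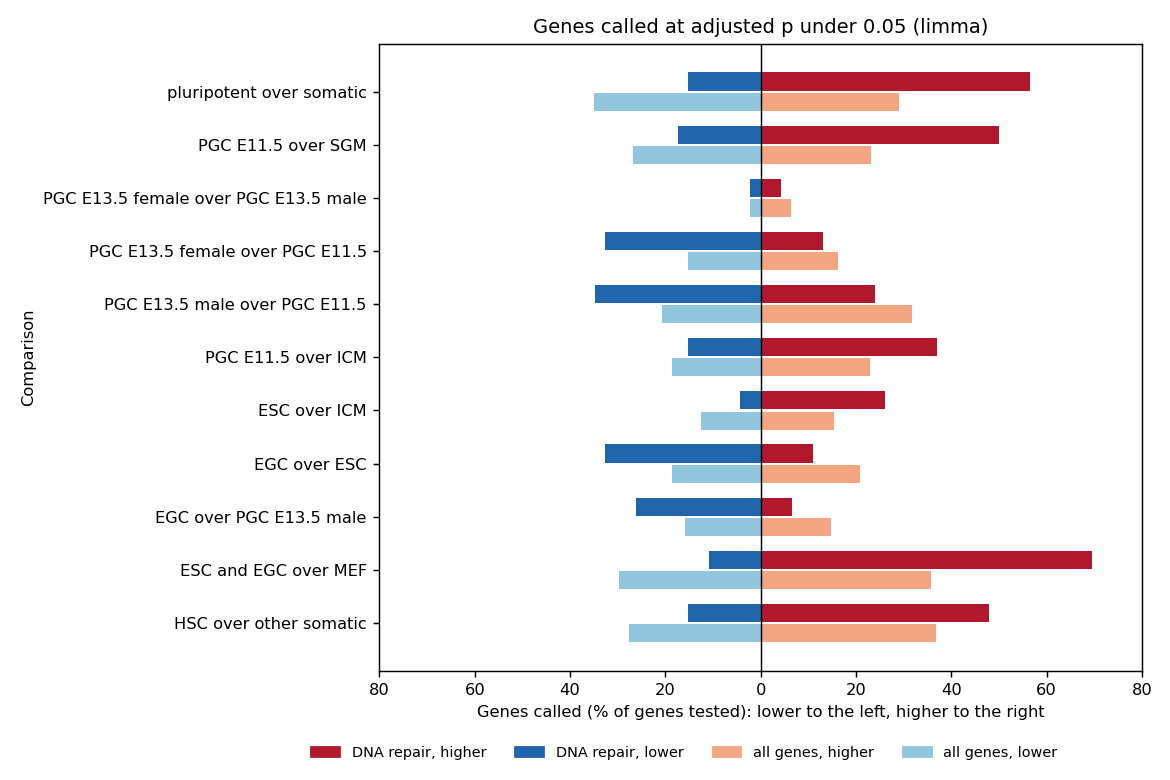
Share of the 46 DNA repair genes (dark bars) and of all 8251 genes (light bars) called by limma at an adjusted p under 0.05 in each of the 11 comparisons, in percent, higher to the right of 0 and lower to the left. For pluripotent over somatic cells 56.5% of the repair genes were higher, against 29.1% of all genes; between the E13.5 sexes both shares were small (4.35% and 6.29%).

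A list of 78 other repair genes, of which 42 were measured, was read beside the members. In pluripotent over somatic cells 26 rose and 5 fell, where 29.1% and 34.9% of all genes did. The checkpoint kinase genes Chek2 (2.01) and Chek1 (1.78) rose most with Ube2t (1.99) and Usp1 (1.76), which add and remove ubiquitin in the Fanconi route. Xpa, the scaffold of nucleotide excision (-0.88), and Rev3l, a polymerase that copies past lesions (-0.81), fell. In PGC E11.5 over SGM 30 rose and 4 fell (23.2% and 26.9% of all genes), led by Usp1 (2.52), Ube2t (2.13) and Exo1 (2.02), the exonuclease of mismatch repair and resection.

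Between the E13.5 sexes 10 of these 42 were higher in females and 1 was lower, against 2 and 1 of the 46 members, and 6.29% and 2.33% of all genes. Among the 10 were Chek1 (1.10), Prkdc, the kinase that works with Ku (0.82), and Dmc1, the meiotic strand exchange protein (0.53); Trp53bp1, which favours end joining, was lower (-0.63). In EGC over ESC 4 rose and 18 fell (20.8% and 18.6% of all genes), with Prkdc at -2.08. In HSC over other somatic cells 15 rose and 16 fell (36.8% and 27.6% of all genes), with Prkdc at 2.37 and the poly(ADP-ribose) hydrolase gene Parg at -1.88.

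The members were also set beside 14 proliferation genes, among them Mki67, Top2a, Pcna and replication licensing genes. Over the 10 group means, 14 of 46 members correlated above 0.7 with the mean of these genes (30.4%, against 4.81% of the other genes), and the median r was 0.47 over the members and -0.07 over other genes. Apex1 (0.921), Pms2 (0.914), Xrcc5 (0.902) and Ung (0.9) were highest and Parp8 (-0.917) was lowest. This describes 10 points that include MEF, the lowest group in both measures, and groups that differ in tissue and culture. Between groups the mean of the 46 members ran from 7.20 in MEF to 8.16 in PGC E11.5. HSC, with the second lowest proliferation mean (8.29), had a repair mean of 7.74, above that of SGM (7.66), whose proliferation mean was 9.23.

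**Figure D5:**
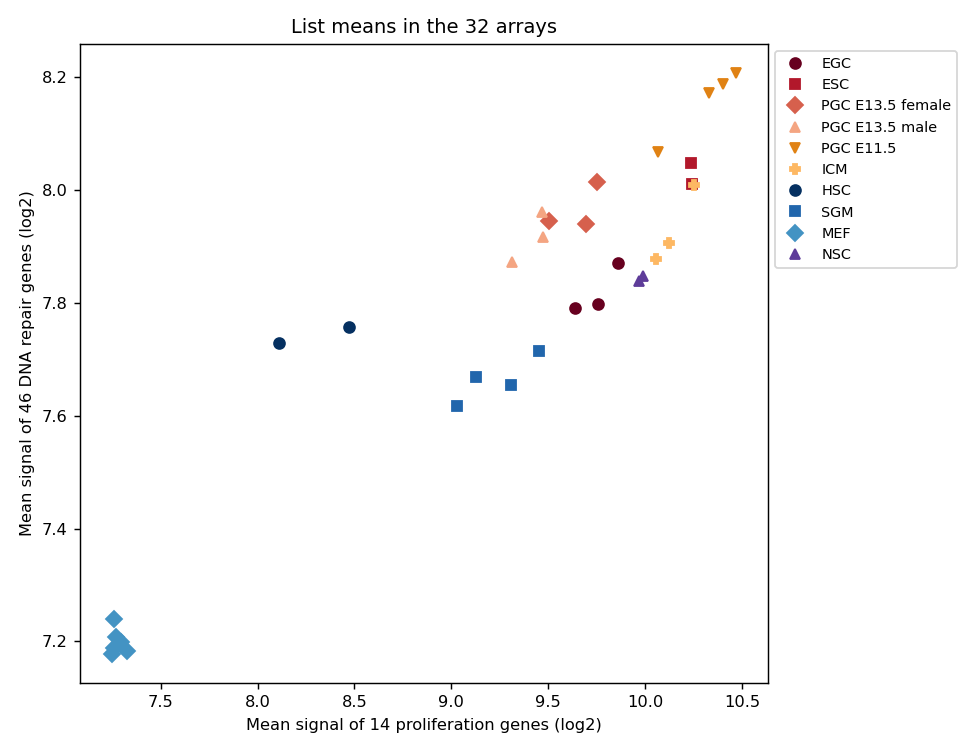
Mean log2 signal of the 46 DNA repair genes (vertical axis) against the mean log2 signal of 14 proliferation genes (horizontal axis) in each of the 32 arrays; colour and symbol give the cell group, and neither axis starts at 0. The 6 MEF arrays lie apart at the lower left, and the PGC E11.5 arrays at the upper right.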

How the data were processed

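RNA of 32 arrays in 10 groups was measured on Affymetrix arrays. Per the labels' protocols, extraction used RNeasy columns and DNase, and in vitro transcription added the biotin label. Values are log2 signals, 1 for each probe set, computed by the authors with RMA (version not given), per the submitters' processing notes. In MEF 13 probe sets exceed 16 on the log2 scale (up to 17.71) and in no other group does any, so whether a further adjustment followed RMA is not known. The table has 34 columns and 12488 probe sets (66 controls). ESC replicate 3 and PGC E11.5 replicate 5 equal the mean of the others of their group (tolerance 1e-06) and were left out. Of the others, 10833 probe sets have 1 symbol in the platform annotation, 396 have several and 1193 have none; 10817 were matched by gene ID to the GRCm38.p6 gene table. The brightest probe set over the arrays stood for each of 8251 genes, of which 2073 had more than 1.

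The fit of group means used limma 3.58.1 (R 4.3.3; lmFit, eBayes; 22 residual and 4.78 prior degrees of freedom, median residual SD 0.161), without a filter on dim genes. Adjusted p-values are Benjamini-Hochberg over 8251 genes, two-sided, and all 11 comparisons come from this fit. Errors of differences are SE. The labels call the arrays biological replicates but give no animals or batches. The script was tested on simulated data. Arrays with the same replicate number correlated in their deviations by -0.566 to 0.521 over 45 group pairs. All numbers were over 0.1 in 4 of these pairs; among groups compared 1 to 1 that held only for ESC and ICM, which share 2 numbers, so numbers were not taken as pairs. Members with full values per comparison are the called members with the largest differences, up to 5 each way in pluripotent over somatic, PGC E11.5 over SGM and between the sexes, and up to 3 each way otherwise; others illustrate their role. Members and lists were chosen with earlier results of these data known. Probe sets ending in _f_at (Parp1, Faap20, Rad23b and Xrcc1) or _s_at (Mre11a) may match related sequences. No detection calls were used, so a fold near background is a rough measure.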

Additional observations from a re-analysis of the deposited data

Results flagged for a closer look

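In 9 of 138 sets of a member's arrays in a group of 4 to 6 arrays, 1 array stood apart from the rest by Dixon's gap test, where chance gives about 1 in 20 (6.9 sets). Atm was 5.766 in SGM replicate 2, with the nearest array at 5.955. Blm was 6.309 in MEF replicate 5 (nearest 6.534). In PGC E11.5, Ercc4 was 6.88 in replicate 4 (nearest 6.772), Fancc 9.859 in replicate 3 (nearest 9.63) and Rad51b 6.54 in replicate 2 (nearest 6.916). Mgmt was 6.367 in SGM replicate 3 (nearest 6.504) and 6.977 in MEF replicate 5 (nearest 6.707). In SGM, Parp1 was 8.64 in replicate 1 (nearest 8.539) and Xrcc1 7.606 in replicate 3 (nearest 7.349). MEF replicate 5 and SGM replicate 3 account for 2 each.

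The change from PGC E11.5 differed between the sexes for 3 members. The shared E11.5 arrays cancel in this difference, so it is the comparison of the sexes in the report and not a further test. For Ercc5 the female change exceeded the male one by 0.6643 (0.7887 in females, 0.1244 in males; adjusted p = 0.00625), a call lost with the mean over probe sets. For Faap20 the difference was -1.729 (-0.6815 in females, 1.048 in males; adjusted p = 5.06e-07). For Mre11a it was 0.5671 (-0.07351 in females, -0.6406 in males; adjusted p = 0.0123), a call lost without female replicate 3. Every female array lay on the same side of every male array in each of these genes.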

How the results depend on the processing

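The counts of called members were recomputed with all 34 columns, each array left out, the replicate number as a block, only the compared groups, a mean over probe sets, plain _at probe sets (42 members), the dimmest genes left out (39 members), median-centred arrays, array weights and another variance prior; each group was also left out of pluripotent over somatic. Counts stayed within 1.5 times the main count except as follows. Between the E13.5 sexes the 3 calls (against 8.62% of all genes) became 5 with the replicate block (8.67%). With 1 array left out they became 2 to 6 (4.71% to 8.97%), with 6 without female replicate 1 (6.53%). Plain _at probe sets left 1 call (8.92%), but Faap20 and Mre11a have no such probe set and were not tested there. In PGC E13.5 female over PGC E11.5 the 21 became 33 with array weights, while the share of all genes called went from 31.5% to 50.2%. In ESC over ICM the 14 (against 27.8% of all genes) became 3 with only the compared groups (9.4%), 9 with centring (27.5%) and 8 with array weights (20.8%). With 1 array left out they became 5 to 12 (16.5% to 28.6%). In EGC over ESC the 20 (against 39.4% of all genes) became 13 to 20 with 1 array left out (26% to 36.5%). The replicate block moved no other count by over 1.5 times. It gave 32 for pluripotent over somatic (62.2% of all genes) and 30 for PGC E11.5 over SGM (49.8%). Leaving out 1 array gave 29 to 34 for pluripotent over somatic (60.9% to 65% of all genes) and 27 to 31 for PGC E11.5 over SGM (45.8% to 50.7%). Over PGC E11.5 it gave 16 to 23 for E13.5 females (22.6% to 36.1%) and 23 to 27 for males (39.2% to 54.6%). For PGC E11.5 over ICM it gave 19 to 30 (36.7% to 40.7%), and for EGC over PGC E13.5 male 12 to 15 (22.9% to 27.3%). For ESC and EGC over MEF it gave 35 to 37 (60.6% to 65.1%), and for HSC 23 to 29 (54.5% to 64.7%). The Rad52 difference between pluripotent and somatic cells turned to 0.035 without HSC and 0.14 without NSC and HSC. Of 70 named differences 61 kept their call in every alternative run that held their gene. Plain _at probe sets left out Parp1, Faap20, Rad23b and Mre11a, and the run without the dimmest genes held 39 members. Parp6 in ESC and EGC over MEF lost its call with the replicate block. For Ung, Xrcc5, Ercc5 and Faap20 a mean over probe sets lowered the differences by over 1.5 times in many of the comparisons that name them. The causes of these shifts were not tested.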
